A study of Mus musculus with 20 samples.

Results

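Apln, Car12, Tmem26, Spon2, Gpr35, Itpk1 and Sema7a are 7 genes of the 29986 in the deposited count table, and all 7 were among the 14420 genes expressed highly enough to be tested. They were picked from the same data for a strong rise by 2 or 6 h of insulin-like growth factor 1 (IGF1), with no numerical threshold, so their levels at 0, 2 and 6 h are given as a description without a test. The cells are tenocytes, the fibroblast-like cells of tendon, taken from the tail tendon of C57Bl/6 mice that were adult and wild type. Messenger RNA was sequenced in 20 libraries: 4 without cytokine (0 h) and 4 each after 1, 2, 6 and 24 h of recombinant IGF1 at 100 ng/mL. Nothing in the labels ties the 4 libraries of a time to separate animals or dishes, so the spread between them, on which every error and p-value rests, may be technical. Time-matched untreated cells are not analysed here, and IGF1 treatment and time in culture cannot be told apart.

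IGF1 acts through a receptor tyrosine kinase that drives the PI3 kinase and ERK pathways, and in tendon it is known to promote growth and matrix production. The 7 genes belong to no single pathway. Apln encodes apelin, a secreted peptide ligand of the G protein-coupled receptor Aplnr, best known from blood vessels. Spon2 encodes mindin, a secreted matrix protein that binds integrins, and Sema7a encodes a semaphorin anchored to the outer cell membrane. Gpr35 is a G protein-coupled receptor that responds to kynurenic acid, Car12 is a carbonic anhydrase of the cell surface that turns carbon dioxide and water into bicarbonate and protons, and Tmem26 is a membrane protein used in mice as a marker of beige fat cells. Itpk1 is a cytosolic kinase that adds phosphate groups to inositol phosphates on the way to the fully phosphorylated form.

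Total counts per library ranged from 13734425 to 22687173. Levels are in CPM, the counts of a gene relative to the library total after scaling for library composition, and fold changes are on the log2 scale with their standard error (SE). All 11 tenocyte markers, the tendon factors Scx, Mkx and Tnmd included, had counts in every library. Their summed level was 75621 to 87250 CPM at 0 h, and its lowest of all libraries was 55878 CPM, in 2 h replicate 2. Most of this sum was Col1a1, Col1a2 and Thbs4, with means of 30157, 24792 and 12531 CPM at 0 h. The mean log2 CPM of the 11 markers was 10.71 to 10.86 at 0 h and 10.59 in 2 h replicate 2. Single markers moved in both directions: at 2 h against 0 h Scx was at 1.33 ± 0.11 and Mkx at -0.90 ± 0.075. Macrophage markers were higher in the 2 h libraries: their mean log2 CPM was 4.25, 5.07, 3.72 and 3.86 in 2 h replicates 1 to 4, and between 3.09 and 3.29 at 0 h, where all 13 markers were already detected. The summed level of these 13 markers was 277 to 349 CPM at 0 h, 254 to 550.4 CPM at 1 h, 418 to 1105 CPM at 2 h, 293 to 464 CPM at 6 h and 202 to 371 CPM at 24 h. None of the 13 was at 0 in any library. At 2 h 12 of them were called higher by edgeR with all libraries, beside 20.2% of all tested genes, and 0 without replicates 1 and 2. With fewer 2 h libraries a rise is harder to call: 4815 genes were called at 2 h in either direction without these replicates, and 5443 with all libraries. Without them the log2 change was still positive for Ptprc (0.68), Tyrobp (0.85), Cd68 (0.56) and Laptm5 (0.55). Replicates 3 and 4 also lay above every 0 h library in mean log2 CPM. Markers of Schwann cells (8 of 9 tested), endothelium (5 of 10) and pericytes with smooth muscle (7 of 8) had their highest mean log2 CPM of all libraries in 2 h replicate 2, at 3.13, 2.32 and 2.78. Their summed level there was also the highest of all libraries for Schwann cells (114 CPM) and pericytes with smooth muscle (89.8 CPM). For endothelium it was 34.2 CPM, below the 41.2 to 43.7 CPM at 0 h. The endothelial marker Tek, at 38.5 ± 1.52 CPM at 0 h, had 21.0 ± 1.28 CPM at 2 h (SD, n = 4 each).

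The RefSeq promoters of the genes are shown so that genes highest at 6 h and at 2 h can be set beside each other. A promoter of 250 bases before and 50 after the transcript start was found for 6 of the 7 genes in the GRCm38.p6 build, all except Spon2, with a pair of entries for Gpr35. The motifs were searched on both strands. Counts among the 6 genes are per gene, where either Gpr35 entry could match, while the shares of all promoters are per entry. The first Gpr35 entry held 0 matches to any of these motifs. GGGCGG, the Sp1 site, was in at least 1 promoter of all 6 genes and in 35.7% of the 32851 RefSeq promoters of this length. ACGTG, the core of the hypoxia response element, was in the promoters of 2 of the 6 genes, Gpr35 and Itpk1, and in 19.6% of all promoters. TGANTCA, the AP-1 site, was in 1, the second Gpr35 entry, and in 7.81% of all promoters. The E-box CACGTG, which holds the ACGTG core, was in 0 of the 6 genes and in 7.15% of all promoters. The cyclic AMP response element TGACGTCA was in 0 of the 6 and in 1.79% of all promoters, and the FoxO site GTAAACA in 0 and in 3.65%. The ETS site CCGGAAG was in 0 of the 6 and in 8.86% of all promoters, and the TATA box TATAAA in 0 and in 13.6%. These matches are a description and not binding sites. The 4 printed here are Apln at chrX:48034804-48035103 (minus strand) and Car12 at chr9:66713436-66713735 (plus), which were highest at 6 h, the second Gpr35 entry at chr1:92978653-92978952 (plus), the only one with both ACGTG and TGANTCA, and Itpk1 at chr12:102704820-102705119 (minus), which was highest at 2 h. Capitals mark GGGCGG and ACGTG on either strand.
Apln promoter: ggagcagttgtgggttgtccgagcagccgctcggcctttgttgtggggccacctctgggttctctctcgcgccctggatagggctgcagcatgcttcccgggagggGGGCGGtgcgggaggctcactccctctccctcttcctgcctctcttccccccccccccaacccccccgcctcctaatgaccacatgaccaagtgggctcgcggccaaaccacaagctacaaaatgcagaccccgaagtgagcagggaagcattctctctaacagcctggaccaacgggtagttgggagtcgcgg
Car12 promoter: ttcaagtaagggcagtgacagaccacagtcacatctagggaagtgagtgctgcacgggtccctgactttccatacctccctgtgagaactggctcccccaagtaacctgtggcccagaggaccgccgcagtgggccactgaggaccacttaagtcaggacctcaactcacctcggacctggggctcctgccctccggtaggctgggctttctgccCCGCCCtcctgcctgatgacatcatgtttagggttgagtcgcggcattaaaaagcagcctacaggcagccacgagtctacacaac
Gpr35 second promoter: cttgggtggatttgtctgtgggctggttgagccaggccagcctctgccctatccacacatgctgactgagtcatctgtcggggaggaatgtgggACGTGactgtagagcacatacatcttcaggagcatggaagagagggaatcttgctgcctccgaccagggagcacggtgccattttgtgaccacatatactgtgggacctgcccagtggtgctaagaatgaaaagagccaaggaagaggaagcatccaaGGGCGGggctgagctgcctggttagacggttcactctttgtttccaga
Itpk1 promoter: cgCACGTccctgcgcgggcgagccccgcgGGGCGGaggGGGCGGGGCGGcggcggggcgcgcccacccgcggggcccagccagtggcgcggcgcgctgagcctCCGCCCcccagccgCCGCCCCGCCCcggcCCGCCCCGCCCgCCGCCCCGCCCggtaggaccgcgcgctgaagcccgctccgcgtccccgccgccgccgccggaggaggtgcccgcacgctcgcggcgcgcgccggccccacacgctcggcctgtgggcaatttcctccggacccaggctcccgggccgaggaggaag

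The 10 GGGCGG matches of the Itpk1 promoter, in a window of 85.3% G and C, contrast with 1 each in those of Apln (64.0% G and C), Car12 (58.3%) and the second Gpr35 entry (54.7%). Sema7a, also highest at 2 h, had 2 matches (67.3% G and C), and so did Tmem26 (60.7%), highest at 6 h. Itpk1 also has its ACGTG match at -248, near the far end of the window. The 7 genes are protein-coding, and in GENCODE M21 (GRCm38) none of their exons shares bases with an exon of another tested gene. Apln (ENSMUSG00000037010) spans chromosome X from 48025146 to 48034853 on the minus strand, Car12 (ENSMUSG00000032373) chromosome 9 from 66713686 to 66766845 on the plus strand, and Tmem26 (ENSMUSG00000060044) chromosome 10 from 68723646 to 68782650 on the plus strand. Spon2 (ENSMUSG00000037379) spans chromosome 5 from 33198184 to 33218455 on the minus strand, Gpr35 (ENSMUSG00000026271) chromosome 1 from 92950865 to 92986391 on the plus strand, Itpk1 (ENSMUSG00000057963) chromosome 12 from 102568582 to 102704930 on the minus strand, and Sema7a (ENSMUSG00000038264) chromosome 9 from 57940112 to 57962865 on the plus strand. Counts refer to a gene as a whole, with no resolution between its transcripts.

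Of the secreted ligands, Apln had the steepest course. Its level was 5.93, 4.62, 8.14 and 5.78 CPM in the 4 libraries at 0 h, 12.4, 8.35, 11.6 and 14.4 CPM at 1 h, and 29.5, 42.4, 22.5 and 24.96 CPM at 2 h. At 6 h it was 52.9, 57.1, 43.2 and 45.9 CPM, and at 24 h 9.69, 8.08, 10.5 and 10.3 CPM. All 1 h libraries lay above all 0 h libraries, the 2 h libraries above those at 1 h, and the 6 h libraries above those at 2 h, by less than 1 CPM at the closest (43.2 against 42.4 CPM). The mean at 6 h, 49.8 ± 6.35 CPM (SD, n = 4), was 8.14 times the 0 h mean of 6.12 ± 1.47 CPM. In the order of change from 0 to 6 h over all tested genes, Apln was number 6. By 24 h only 8.11% of the peak rise was left. The 24 h libraries overlapped those at 0 h (8.08 CPM at the lowest against 8.14 CPM at the highest), and also those at 1 h.

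Spon2 had the highest mean CPM of the 7 at 0, 1, 6 and 24 h (Itpk1 at 2 h) and the largest share of its rise left at 24 h. It had 18.8, 16.1, 15.5 and 15.8 CPM at 0 h, 27.2, 27.7, 31.6 and 24.7 CPM at 1 h and 51.3, 37.3, 50.3 and 58.98 CPM at 2 h. At 6 h the level was 88.1, 100.3, 73.6 and 83.4 CPM, and at 24 h it was 69.9, 74.6, 69.99 and 70.04 CPM. No libraries of 0, 1, 2 and 24 h overlapped in this order, while the 24 and 6 h libraries did. The 6 h mean of 86.3 ± 11.1 CPM was 5.22 times the 0 h mean of 16.5 ± 1.53 CPM (SD, n = 4 each), and 78.2% of that rise was left at 24 h.

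Sema7a belonged to the early pattern, highest at 2 h. The values were 2.41, 2.995, 3.005 and 3.27 CPM at 0 h, 5.53, 6.33, 3.67 and 5.31 CPM at 1 h and 12.5, 30.1, 12.7 and 11.4 CPM at 2 h. They were 8.63, 6.75, 9.09 and 7.35 CPM at 6 h and 2.58, 1.09, 1.37 and 1.74 CPM at 24 h. The libraries at 0, 1, 6 and 2 h did not overlap in this order, and those at 24 h reached into the 0 h range from below. 2 h replicate 2 was far above the other 3 libraries of its time. The mean at 2 h was 16.7 ± 8.99 CPM, 5.71 times the 0 h mean of 2.92 ± 0.362 CPM (SD, n = 4 each). The log2 fold change at 2 h against 0 h was 2.52 ± 0.28, and 2.06 without 2 h replicate 2. The step at 6 h against 2 h was -1.07 ± 0.26 with all libraries and -0.61 without that one.

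Of the membrane proteins, Car12 was the latest to move. It had 4.45, 6.04, 3.99 and 3.79 CPM at 0 h, 5.88, 3.28, 2.29 and 4.87 CPM at 1 h and 7.18, 4.53, 9.73 and 6.77 CPM at 2 h, so that the first 3 times overlapped. At 6 h it had 34.3, 33.3, 29.2 and 31.3 CPM, and at 24 h 9.904, 11.9, 10.2 and 10.5 CPM. The 6 h libraries stood clear of all others, and the 24 h libraries stood just above those at 2 h (9.90 against 9.73 CPM at the closest). The 6 h mean, 32.0 ± 2.27 CPM, was 7.02 times the 0 h mean of 4.57 ± 1.02 CPM (SD, n = 4 each). Only 9.04% of this rise was present at 2 h, and 22.0% was left at 24 h. The log2 change at 6 h against 2 h, 2.19 ± 0.21, was number 2 among all tested genes.

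Tmem26 and Gpr35, both of low abundance, were also highest at 6 h. Tmem26 had 1.67, 2.28, 3.28 and 2.23 CPM at 0 h, 2.26, 3.05, 3.99 and 2.91 CPM at 1 h, 5.64, 8.602, 5.93 and 5.16 CPM at 2 h, 17.2, 17.6, 11.02 and 12.96 CPM at 6 h and 7.32, 6.88, 6.92 and 6.26 CPM at 24 h. The 6 h libraries lay above all others, and the 2 h and 24 h libraries overlapped, both above those at 0 and 1 h. Gpr35 had 2.55, 2.28, 1.58 and 1.61 CPM at 0 h, 2.56, 1.27, 3.07 and 2.85 CPM at 1 h, 2.92, 5.28, 3.34 and 2.87 CPM at 2 h, 9.42, 8.61, 10.3 and 10.5 CPM at 6 h and 1.39, 2.17, 1.94 and 2.13 CPM at 24 h. Only its 6 h libraries stood clear of every other time. Its lowest raw count was 20, in 24 h replicate 1 (1.39 CPM), and its lowest level was 1.27 CPM, in 1 h replicate 2. Mean levels at 6 h were 6.21 times the 0 h mean for Tmem26 and 4.84 times for Gpr35. At 24 h 36.4% of the rise of Tmem26 was left, while the Gpr35 mean of 1.91 ± 0.358 CPM lay within the spread of its 0 h mean, 2.01 ± 0.485 CPM (SD, n = 4 each). Without 2 h replicate 2, the log2 change of Gpr35 at 2 h against 0 h was 0.59 in place of 0.84 ± 0.24.

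Itpk1, the kinase, was highest at 2 h. Its level was 12.4, 12.1, 12.2 and 10.5 CPM at 0 h, 10.1, 13.6, 19.3 and 15.1 CPM at 1 h and 49.6, 58.5, 46.7 and 51.8 CPM at 2 h. It was 25.9, 23.2, 22.5 and 21.2 CPM at 6 h and 14.2, 12.2, 12.8 and 12.01 CPM at 24 h. The 0, 1 and 24 h libraries overlapped, those at 6 h stood above them and those at 2 h above all. Most of the change lay between 1 and 2 h, with 6.84% of the peak rise present at 1 h, 28.6% at 6 h and 2.48% at 24 h. The mean at 2 h was 51.6 ± 5.02 CPM, 4.38 times the 0 h mean of 11.8 ± 0.897 CPM (SD, n = 4 each).

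**Figure D1:**
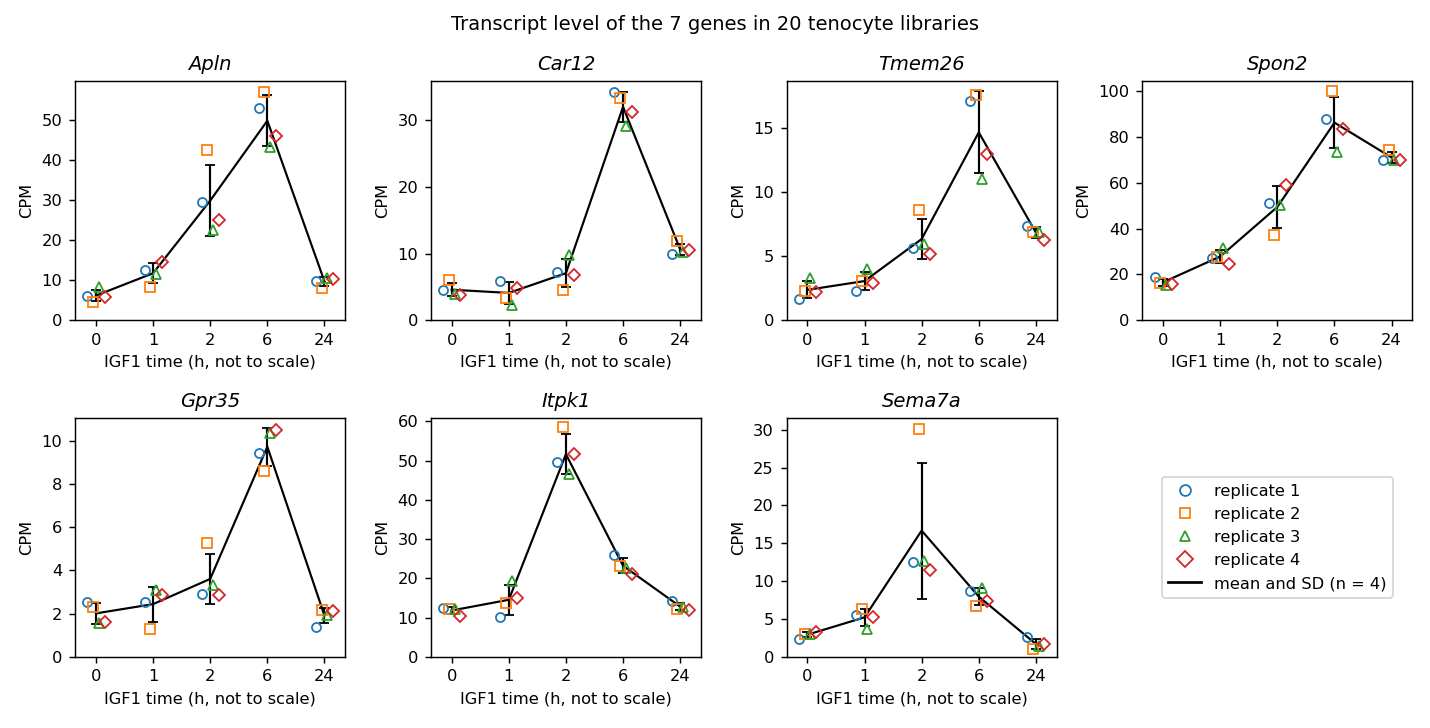
Level of each gene in CPM (y axis, from 0) at 0, 1, 2, 6 and 24 h of IGF1 (x axis, not to scale); symbols are single libraries, and lines join the means with SD bars (n = 4). Apln, Car12, Tmem26, Spon2 and Gpr35 are highest at 6 h, Itpk1 and Sema7a at 2 h, where 1 library of Sema7a stands at 30.1 CPM.

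All 7 genes had a positive log2 change at 2 h and at 6 h against 0 h. The choice of the genes, for a rise by 2 or 6 h, fixed or favoured these signs, so they are a description. Over all tested genes 37.7% were called at 2 h and 40.2% at 6 h, in either direction, which is a different measure from the sign. The log2 change at 6 h against 0 h was 3.03 ± 0.20 for Apln, 2.81 ± 0.21 for Car12, 2.64 ± 0.20 for Tmem26, 2.38 ± 0.11 for Spon2, 2.27 ± 0.23 for Gpr35, 1.45 ± 0.29 for Sema7a and 0.98 ± 0.13 for Itpk1.

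Set per length of exon, the order of mean levels at 0 h differed from that in CPM in that Sema7a stood above Car12. Mean levels at 0 h were 5.61 RPKM (CPM per kilobase of exon) for Spon2, 3.55 for Itpk1, 1.94 for Apln, 0.885 for Sema7a, 0.601 for Car12, 0.448 for Tmem26 and 0.415 RPKM for Gpr35. At its peak Spon2 reached 29.3 RPKM, above 89.2% of the tested genes, Apln 15.8 RPKM (above 80.5%) and Itpk1 15.6 RPKM (above 80.2%). Gpr35 reached 2.01 RPKM, above 36.0% of the tested genes. The lengths come from the annotation and not from the authors' counting.

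**Figure D2:**
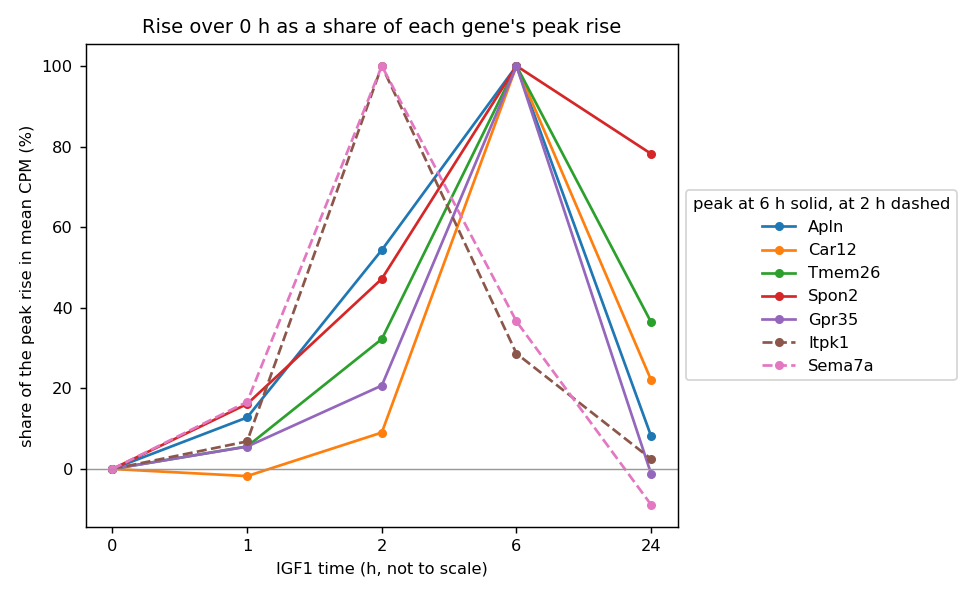
Rise in mean CPM over 0 h, as a percentage of each gene's own largest rise (y axis), at each IGF1 time (x axis, not to scale). At 2 h the genes that peak at 6 h range from 9.04% (Car12) to 54.3% (Apln), and at 24 h the shares range from 78.2% for Spon2 to -8.90% for Sema7a.

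The return at 24 h was tested against 0 h and against 1 h. The stated rule, a rise by 2 or 6 h, uses the 0 h libraries but neither the 1 h nor the 24 h libraries. The comparison of 24 h with 1 h thus shares no library with the rule. But the genes were chosen with earlier results of these data known, so no test here is fully independent of the choice. Against 0 h, 4 of the 7 genes were called higher at 24 h, at a Benjamini-Hochberg adjusted p under 0.05 in edgeR's quasi-likelihood test, and 0 lower. Over all tested genes 26.0% were called, 12.7% higher and 13.2% lower. Of the 7 genes 1, Sema7a, had an unadjusted p under 0.05 in the lower direction, and DESeq2 called it lower. Spon2 rose by 2.10 ± 0.11 (adjusted p = 6.54e-13), Tmem26 by 1.54 ± 0.21 (adjusted p = 1.92e-06) and Car12 by 1.22 ± 0.22 (adjusted p = 2.36e-04), each with no overlap between the libraries of these times. The share of all tested genes without overlap is not given here, so overlap, here and below, is a description and no test. Apln was higher by 0.66 ± 0.22 (adjusted p = 0.0305), with overlapping libraries. Its call was lost without any 1 of 0 h replicates 1, 2 or 4 or 24 h replicates 1, 3 or 4 (adjusted p from 0.0602 to 0.0958).

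Itpk1 (0.12 ± 0.13, adjusted p = 0.576) and Gpr35 (-0.07 ± 0.26, adjusted p = 0.883) did not pass the test at 24 h against 0 h. Sema7a, at 1.70 ± 0.649 CPM at 24 h and 2.92 ± 0.362 CPM at 0 h (SD, n = 4 each), missed the threshold of edgeR's test with all libraries (-0.80 ± 0.34, adjusted p = 0.0953). Without 2 h replicate 2, which enters this comparison only through the shared estimate of the spread, it was called lower (-0.80, adjusted p = 0.00715), as it was without 24 h replicate 1 (-1.06, adjusted p = 0.0430). It was further from the threshold, at -0.63, when 24 h replicate 2 was left out (adjusted p = 0.240).

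Against 1 h, 3 of the 7 were called higher at 24 h and 1 lower, beside 15.9% and 18.6% of all tested genes (34.4% in either direction). Car12 rose by 1.40 ± 0.23 (adjusted p = 4.92e-05), Spon2 by 1.35 ± 0.11 (adjusted p = 5.49e-10) and Tmem26 by 1.15 ± 0.20 (adjusted p = 6.79e-05), all 3 with no overlap. Sema7a fell by 1.63 on the log2 scale (SE 0.33, adjusted p = 5.78e-04), also with no overlap. Apln (-0.27 ± 0.21, adjusted p = 0.331), Gpr35 (-0.35 ± 0.26, adjusted p = 0.307) and Itpk1 (-0.19 ± 0.13, adjusted p = 0.268) did not pass. Itpk1 was called lower without 1 h replicate 1 (-0.32, adjusted p = 0.0389), and was at -0.0023 without 1 h replicate 3 (adjusted p = 0.992). Against 6 h, given without a test because the 6 h libraries helped to choose the genes, the log2 change at 24 h was -2.36 ± 0.20 for Apln, -2.34 ± 0.24 for Gpr35, -2.25 ± 0.32 for Sema7a, -1.59 ± 0.20 for Car12, -1.10 ± 0.19 for Tmem26, -0.86 ± 0.13 for Itpk1 and -0.28 ± 0.10 for Spon2. In the authors' deposited table the log2 change at 24 h against 0 h was 0.67 for Apln, 1.22 for Car12, 1.54 for Tmem26, 2.10 for Spon2, -0.07 for Gpr35, 0.12 for Itpk1 and -0.80 for Sema7a.

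After 1 h, 2 of the 7 genes were called higher than at 0 h and 0 lower, beside 6.75% and 3.88% of all tested genes (10.6% in either direction). At an unadjusted p under 0.05, 4 were higher and 0 lower, and DESeq2 called 3 higher and 0 lower. Here too the 0 h libraries are shared with the choice of the genes. Spon2 rose by 0.75 ± 0.12 (adjusted p = 5.25e-05) and Apln by 0.94 ± 0.21 (adjusted p = 0.00575), and neither gene's libraries overlapped. Sema7a was at 0.83 ± 0.30 (adjusted p = 0.0839), with no overlap between the libraries, and was called without 2 h replicate 2 (0.83, adjusted p = 0.00310). It was further from the threshold, at 0.71, when 1 h replicate 2 was left out (adjusted p = 0.215). Tmem26 was at 0.39 ± 0.22 (adjusted p = 0.314), Itpk1 at 0.31 ± 0.13 (adjusted p = 0.141), Gpr35 at 0.28 ± 0.25 (adjusted p = 0.573) and Car12 at -0.18 ± 0.24 (adjusted p = 0.729), all with overlapping libraries. Leaving out 1 library moved Itpk1 both ways: it was called without 1 h replicate 1, its lowest library of that time (0.44, adjusted p = 0.0137), and was at 0.12 without 1 h replicate 3, its highest (adjusted p = 0.669).

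**Figure D3:**
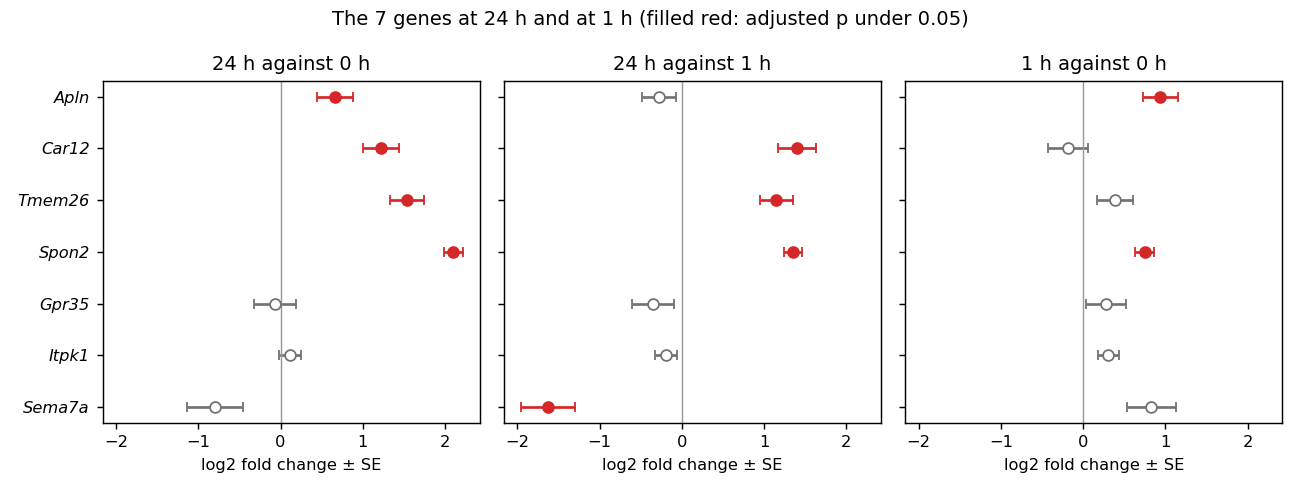
Log2 fold change with SE (x axis) of each gene (rows) for 24 h against 0 h, 24 h against 1 h and 1 h against 0 h; filled red points have an adjusted p under 0.05 in edgeR's test over all genes. Spon2, Tmem26 and Car12 are called higher in both 24 h panels, and Sema7a is the only one of the 7 called lower, in 24 h against 1 h.

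The macrophage marker level moved with the levels of several of the genes among the 2 h libraries. 2 h replicate 2, with the highest marker level (5.07), was the highest of the 4 for Apln, Tmem26, Gpr35, Itpk1 and Sema7a, and the lowest for Car12 and Spon2. For Apln the 4 libraries had the same order as the marker level, from replicate 3 (22.5 CPM) through replicates 4 and 1 to replicate 2 (42.4 CPM). The part of these other cells in the 2 h values was not tested, and in bulk libraries fewer cells of a type and less RNA per cell cannot be told apart. At 6 h 0 of the 13 macrophage markers were called in either direction against 0 h by edgeR (1 lower at an unadjusted p under 0.05, 0 by DESeq2), with a mean log2 CPM of 3.04 to 3.81 at 6 h and 3.09 to 3.29 at 0 h. The 6 h library with the highest marker level, replicate 2 (3.81), was the highest of its time for Apln (57.1 CPM), Tmem26 (17.6 CPM) and Spon2 (100.3 CPM). It was the lowest for Gpr35 (8.61 CPM) and Sema7a (6.75 CPM), with Car12 and Itpk1 in between. Among the 1 h libraries, replicate 4 had the highest marker level (4.09). It was the highest of its time for Apln (14.4 CPM) and the lowest for Spon2 (24.7 CPM), with the other genes in between. Without 2 h replicates 1 and 2, the log2 change at 2 h against 0 h was 1.96 for Apln (2.29 ± 0.20 with all libraries), 1.24 for Tmem26 (1.43 ± 0.21), 0.62 for Gpr35 (0.84 ± 0.24), 2.06 for Itpk1 (2.13 ± 0.12) and 2.04 for Sema7a (2.52 ± 0.28). It was higher without them for Car12, at 0.85 against 0.62 ± 0.22 with all libraries, and for Spon2, at 1.72 against 1.58 ± 0.11.

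**Figure D4:**
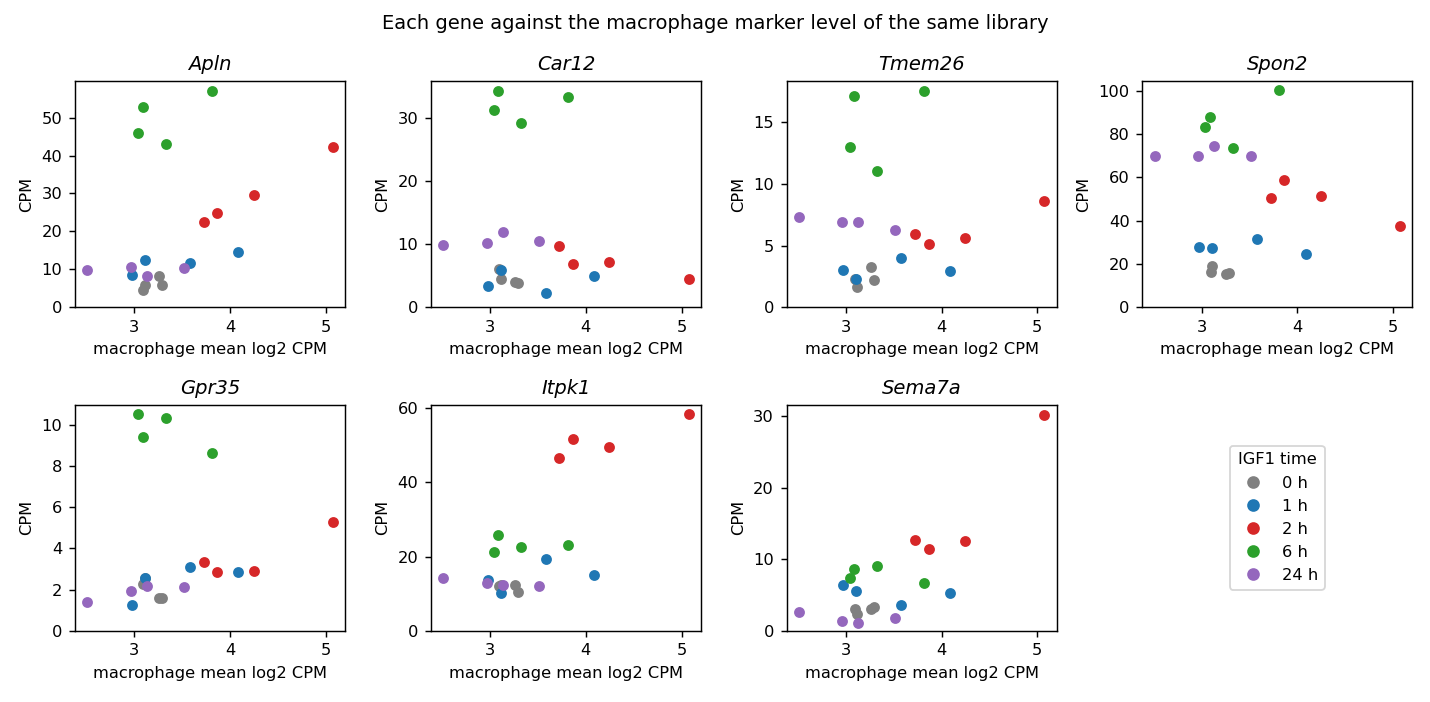
Level of each gene in CPM (y axis) against the mean log2 CPM of 13 macrophage markers in the same library (x axis); each point is 1 of the 20 libraries, coloured by IGF1 time. The 6 h libraries have marker levels of 3.04 to 3.81, and 2 h replicate 2 stands at 5.07.

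The other genes of each pathway came from lists fixed with earlier results of these data known, and the 7 genes are left out of their counts. For setting beside every list, 6.75% of all tested genes were called higher and 3.88% lower at 1 h. These shares were 20.2% and 17.5% at 2 h, 20.6% and 19.6% at 6 h, and 12.7% and 13.2% at 24 h. They come from the fit of all libraries and are not the base for counts without 2 h replicates 1 and 2. In that smaller fit 4815 genes were called at 2 h in either direction, against 5443 with all libraries. Of the apelin system, the receptor Aplnr had at most 7 counts in any library, too few to be tested. Furin, a protease that cleaves the apelin precursor, and neprilysin (Mme), which degrades apelin, were tested. Mme fell at 2 h (-0.32 ± 0.12, adjusted p = 0.0449) and at 6 h (-0.48 ± 0.12, adjusted p = 0.00316), with 47.8 ± 7.16 CPM at 6 h against 66.6 ± 8.06 CPM at 0 h (SD, n = 4 each). Furin fell at 24 h (-0.22 ± 0.080, adjusted p = 0.0464). Without 2 h replicates 1 and 2, Mme was at -0.51 at 2 h (adjusted p = 0.00804). At 1 h 0 of the 2 were called by edgeR, 0 had an unadjusted p under 0.05 and DESeq2 called 0.

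Of the other carbonic anhydrases 8 were tested, and 2 rose and 3 fell at 6 h, beside 20.6% of all genes called higher and 19.6% lower at that time. Their median log2 change at 6 h was -0.62, and that of all tested genes was -0.0019. Car9, another hypoxia-induced enzyme of the cell surface, rose by 1.13 ± 0.12 at 6 h (adjusted p = 1.70e-08) and by 1.25 ± 0.12 at 24 h (adjusted p = 5.49e-09). Its level was 7.897 ± 1.31, 6.07 ± 0.632, 8.49 ± 0.778, 17.4 ± 1.84 and 18.8 ± 1.503 CPM at 0, 1, 2, 6 and 24 h (SD, n = 4 each). Car9 and Car12 were thus both higher at 6 h and at 24 h than at 0 h, but Car9 had its highest mean at 24 h and Car12 at 6 h. The mitochondrial Car5b fell at 2 h (-0.40 ± 0.13, adjusted p = 0.0140) and at 6 h (-0.68 ± 0.13, adjusted p = 1.23e-04), and Car11 (-0.76 ± 0.22) and Car2 (-0.88 ± 0.35) fell at 6 h. At 24 h 2 rose and 1 fell, the one that fell being Car3, with 213 ± 35.4 CPM at 24 h against 393 ± 25.6 CPM at 0 h (-0.89 ± 0.26, adjusted p = 0.0192). At 2 h 0 rose and 1, Car5b, fell, a call lost without 2 h replicates 1 and 2 (-0.39, adjusted p = 0.0625). At 1 h 0 of the 8 were called by edgeR, 1 was lower at an unadjusted p under 0.05 and DESeq2 called that direction for 1.

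Of the acid and bicarbonate transporters, which carry bicarbonate, protons or lactate across membranes, 12 were tested. At 1 h 2 rose and 0 fell, at 2 h 3 rose and 3 fell, at 6 h 2 rose and 3 fell, and at 24 h 0 rose and 2 fell. The lactate exporter Slc16a3 had 96.9 ± 10.2, 125 ± 5.52, 194 ± 23.1, 393 ± 19.8 and 81.1 ± 9.44 CPM at 0, 1, 2, 6 and 24 h (SD, n = 4 each), a rise of 2.02 ± 0.086 at 6 h (adjusted p = 8.37e-16). Slc16a1, another lactate carrier, rose by 0.88 ± 0.076 at 2 h (adjusted p = 6.95e-10) and by 0.42 ± 0.076 at 6 h. The sodium bicarbonate cotransporter Slc4a4 fell at 24 h (-0.71 ± 0.090, adjusted p = 5.83e-07).

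The hypoxia target list is given because apelin, Car12 and Car9 are known as hypoxia-inducible genes. Of its 22 tested genes 7 rose and 0 fell at 1 h, 15 rose and 3 fell at 2 h, 16 rose and 2 fell at 6 h, and 2 rose and 9 fell at 24 h. Of all tested genes 20.2% were called higher at 2 h and 17.5% lower. The list's median log2 change was 0.12, 0.45, 1.07 and -0.20 at 1, 2, 6 and 24 h, and that of all tested genes was 0.0032, -0.0061, -0.0019 and 0.0015. Egln3, a prolyl hydroxylase that marks hypoxia-inducible factors for breakdown, rose by 2.85 ± 0.16 at 6 h (adjusted p = 2.30e-13), and the glycolytic activator Pfkfb3 by 2.20 ± 0.13 (adjusted p = 3.29e-11). At 24 h Car9 was among the genes of this list that rose, while Mxi1 (-0.71 ± 0.087), the vasoactive peptide Adm (-0.60 ± 0.067) and Ndrg1 (-0.55 ± 0.060) fell. Without 2 h replicates 1 and 2, 13 rose and 3 fell at 2 h, in a fit that called 4815 genes in either direction (5443 with all libraries).

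**Figure D5:**
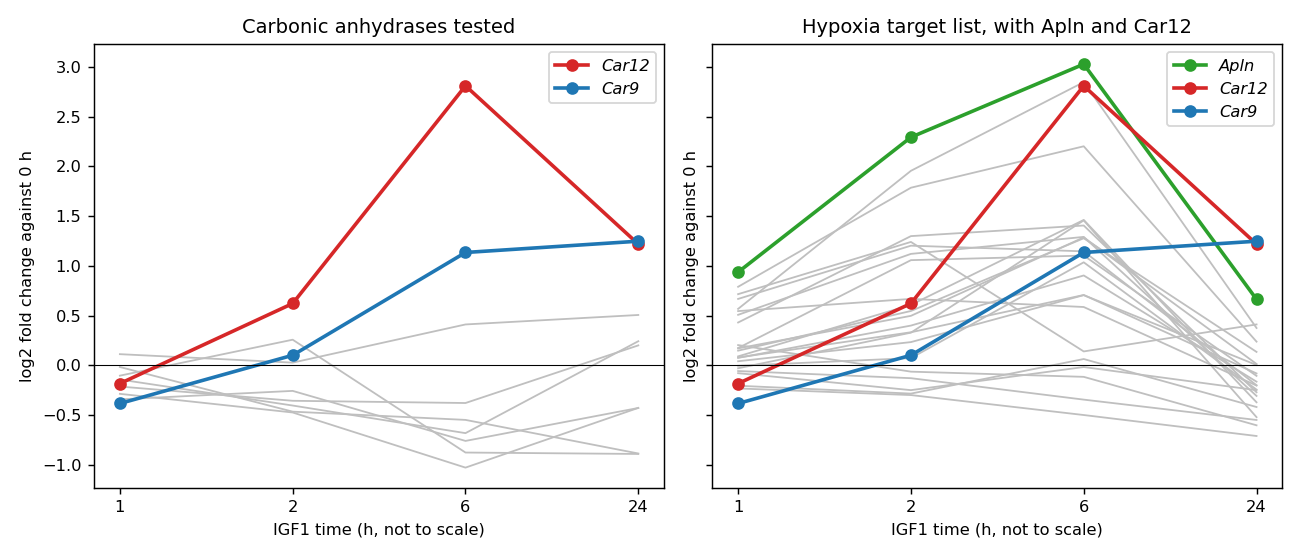
Log2 fold change against 0 h (y axis) at 1, 2, 6 and 24 h (x axis, not to scale) of the tested carbonic anhydrases (left) and of the hypoxia target list with Apln and Car12 added (right); grey lines are single genes. Car12 reaches 2.81 and Apln 3.03 at 6 h, and Car9 stands at 1.13 at 6 h and 1.25 at 24 h.

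Of the semaphorins other than Sema7a, guidance proteins that signal mostly through plexins and neuropilins, 16 were tested. At 1 h 1 rose and 0 fell, at 2 h 4 rose and 8 fell, at 6 h 2 rose and 8 fell, and at 24 h 1 rose and 5 fell. Their median log2 change was -0.33 at 2 h. Sema4b rose by 0.90 ± 0.12 at 2 h (adjusted p = 2.03e-06) and Sema6d by 1.69 ± 0.40 (adjusted p = 0.00318), while Sema6c (-0.88 ± 0.17) and Sema6a (-0.83 ± 0.12) fell. Sema6d had 9.03 ± 7.04 CPM at 2 h and 2.81 ± 0.415 CPM at 0 h (SD, n = 4 each). Without 2 h replicates 1 and 2, the count filter let 17 of these semaphorins be tested. Of them 1, Sema4b, rose (0.76, adjusted p = 9.26e-05) and 8 fell at 2 h, and Sema6d was no longer called (0.57, adjusted p = 0.0957). At 6 h the secreted Sema3c fell, with 888 ± 8.403 CPM at 6 h against 1301 ± 50.2 CPM at 0 h (-0.55 ± 0.056, adjusted p = 8.27e-09).

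Of 13 semaphorin receptors, which include plexin C1 and the beta1 integrin bound by Sema7a, 3 rose and 4 fell at 2 h, 1 rose and 4 fell at 6 h, and 2 rose and 2 fell at 24 h. At 1 h 0 were called by edgeR, 1 was higher at an unadjusted p under 0.05 and DESeq2 called 0. The integrin chain Itga1 fell at 2 h (-0.54 ± 0.077), 6 h (-0.93 ± 0.078, adjusted p = 2.58e-10) and 24 h (-0.77 ± 0.078), and its partner chain Itgb1 fell at 24 h (-0.42 ± 0.051, adjusted p = 3.32e-07). The plexin Plxnc1 rose at 2 h (0.86 ± 0.26, adjusted p = 0.0112), with 3.71 ± 1.46 CPM at 2 h against 2.05 ± 0.273 CPM at 0 h (SD, n = 4 each), at the time when macrophage markers were high. Plxnd1, a receptor of class 3 semaphorins, rose by 1.33 ± 0.15 at 2 h (adjusted p = 3.28e-07). Without 2 h replicates 1 and 2, 1 receptor, Plxnd1, rose (0.99, adjusted p = 8.59e-08) and 5 fell at 2 h, and Plxnc1 was no longer called (0.50, adjusted p = 0.209).

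Of the 19 other inositol phosphate enzymes tested, 2 rose and 2 fell at 1 h, 4 rose and 4 fell at 2 h, 5 rose and 6 fell at 6 h, and 5 rose and 4 fell at 24 h. Ippk, the kinase that makes the fully phosphorylated inositol, rose by 0.60 ± 0.092 at 2 h (adjusted p = 9.23e-06), when Itpk1 was highest, and had 17.5 ± 1.66, 21.99 ± 2.63, 26.4 ± 1.25, 21.6 ± 0.657 and 14.5 ± 1.46 CPM at 0, 1, 2, 6 and 24 h (SD, n = 4 each). Of its exonic bases 6.52% are shared with Cenpp on the opposite strand, and without knowledge of strand in the counting reads of the pair cannot be told apart. Ip6k1 (-0.48 ± 0.062) and Ip6k2 (-0.55 ± 0.079), which add a further phosphate to it, fell at 2 h. Nudt11, a phosphatase of the resulting pyrophosphates, rose at 24 h (1.11 ± 0.24, adjusted p = 9.83e-04).

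Of 3 other spondins and R-spondins tested, the R-spondins being amplifiers of Wnt signals, 0 rose and 2 fell at 2 h, 0 rose and 1 fell at 6 h, and 1 rose and 0 fell at 24 h. At 1 h 0 were called by edgeR, 0 had an unadjusted p under 0.05 and DESeq2 called 0. Rspo2 fell at 2 h (-0.76 ± 0.15, adjusted p = 2.92e-04) and rose at 24 h (0.64 ± 0.15, adjusted p = 0.00153), and Rspo3 fell at 2 h (-0.41 ± 0.078, and -0.26 without 2 h replicates 1 and 2). Of the kynurenine pathway, which makes the Gpr35 ligand kynurenic acid, 5 genes were tested. At 2 h 1 rose, the formamidase Afmid (0.85 ± 0.25, adjusted p = 0.00757), which shares 2.35% of its exonic bases with Tk1 on the opposite strand. This call was lost without 2 h replicates 1 and 2 (0.52, adjusted p = 0.211). The kynurenine aminotransferase Ccbl1 fell (-0.77 ± 0.19, adjusted p = 0.00233). At 1, 6 and 24 h 0 were called by edgeR, 1 gene at each time had an unadjusted p under 0.05 and DESeq2 called 0. Of the enzymes that open the pathway, Tdo2 and Ido1 had at most 3 and 4 counts in any library and were not tested. Ido2, with at most 14 counts, was tested and was called at no time against 0 h.

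The likeness of other genes to each of the 7 was measured as the Pearson correlation of log2 CPM over the 20 libraries, among 9986 named genes with a mean of at least 5 CPM. The libraries share the 5 times and the differences in cell content, so the values are descriptions. Apln was most like Egln3 (r = 0.97), Pfkfb3 (0.97) and the enolase Eno2 (0.97). Car12 was most like Pgm2, a phosphoglucomutase (0.94), Tspan9 (0.92) and Jpt2 (0.91), and Tmem26 like the pyruvate kinase Pkm (0.95), the AMP deaminase Ampd2 (0.94) and Rcor2 (0.93). Spon2 was most like Mrgprf (0.95), Nrn1 (0.95) and Ampd2 (0.94), and Gpr35 like the glycolytic enzymes Gpi1 (0.95) and Tpi1 (0.95) and the collagen prolyl hydroxylase P4ha2 (0.95). Itpk1 was most like Ttyh2 (0.94), the spermine oxidase Smox (0.93) and Prickle1 (0.92), and Sema7a like the lactate carrier Slc16a1 (0.95), the uridine-cytidine kinase Uck2 (0.94) and Wdr43 (0.94). Of their exonic bases, Nrn1 shares 22.3%, Pkm 15.3%, Pgm2 13.6%, Gpi1 11.5% and Ampd2 8.31% with another tested gene. Among the 7 genes themselves, r ranged from 0.12 (Car12 or Spon2 with Sema7a) to 0.90 (Tmem26 with Spon2), and it was 0.83 for Itpk1 with Sema7a.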

How the data were processed

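Tenocyte messenger RNA was sequenced in 20 libraries, grouped by the labels, 4 per time. The authors deposited raw read counts per gene, whole numbers with unequal totals. FastQC, STAR, edgeR and mm10 are named, without versions, per the submitters' processing notes. Counting tool, annotation and use of strand: not given in the sources used here. A table of log2 fold changes per comparison that the authors deposited is quoted only where named.

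Counts were filtered with filterByExpr (14420 of 29986 genes, 99.9% of counts), scaled by TMM and fitted with edgeR 4.0.16 (quasi-likelihood, robust, limma 3.58.1, R 4.3.3), all 20 libraries in 1 fit without covariates, and p-values were adjusted over all tested genes. SE is the fold change divided by the square root of F. The code was tested on simulated counts. Likeness used log2 CPM with a prior count of 2. Genes named were the 7, up to 4 called genes per list and time of the largest change, and the 3 most like each; the text leaves some out, and adds list genes too low to test. The genes and lists were chosen with earlier results of these data known. Alternatives were RLE scaling, 2 other count filters, a replicate block, DESeq2 1.42.0, fits of 8 libraries, and leaving out libraries.

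In the labels, the description of 0 h replicate 2 repeats that of replicate 1. Their counts differed by a chi-square of 9.28 per degree of freedom (all replicate pairs 2.99 to 57.4), so both were counted. Counting error is larger for Gpr35 and Sema7a, with 20 to 200 and 18 to 599 counts per library, than for Spon2, with 284 to 1786.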

Additional observations from a re-analysis of the deposited data

Results flagged for a closer look

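In groups of 4 libraries, the gap of the highest or lowest library to the nearest other was compared with the whole range. Of 60 groups looked at, 4 had a gap above the 95% critical value of 0.829 times the range, and chance flags about 1 group in 20. Sema7a in 2 h replicate 2 was at 30.1 CPM, with the other 3 libraries of that time between 11.4 and 12.7 CPM. The Schwann cell markers in 6 h replicate 2 had a mean log2 CPM of 1.56, with the others between 0.190 and 0.341. Itpk1 in 0 h replicate 4 was at 10.5 CPM, with the others between 12.1 and 12.4 CPM. Spon2 in 24 h replicate 2 was at 74.6 CPM, with the others between 69.9 and 70.0 CPM.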

How the results depend on the processing

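Each of 21 tested values of the 7 genes was recomputed under 27 alternatives, and 544 of the 567 values kept their direction and their side of the threshold. The tested values of Spon2 and Tmem26 kept both under all alternatives, as did those of Car12 at 24 h. Values near 0 changed sign when 1 library was left out: Car12 at 1 h against 0 h ranged from -0.43 (without 1 h replicate 1) to 0.021 (without 1 h replicate 3), and Gpr35 at 24 h against 0 h from -0.16 (without 0 h replicate 4) to 0.075 (without 0 h replicate 1), with 0.051 without 24 h replicate 1. The call of Apln at 24 h was also lost with the replicate number as a block (adjusted p = 0.0597). Sema7a was also called at 24 h against 0 h by DESeq2 (adjusted p = 0.0389), without a count filter (0.00165) and with only the 8 libraries compared (0.0195), and likewise at 1 h (0.0378, 3.57e-04 and 0.00513). The number of genes called ranged from 1158 (without 1 h replicate 3) to 2156 (without 2 h replicate 4) at 1 h, and from 3118 to 4670 at 24 h against 0 h, when 1 library was left out. Genes called lower at 1 h numbered 560 with all libraries, 909 without 2 h replicate 4 and 860 with only the 8 libraries compared, and at 2 h 1682 with those 8 and 2527 with all. Without 2 h replicates 1 and 2, Apln at 6 h against 2 h was at 1.07. The causes were not tested. No pairing by replicate number was seen: 1 of 40 same-numbered pairs had a correlation of deviations over 0.1, and 3 of 20 libraries correlated best with their own number. Such correlations cannot exclude that same-numbered libraries share an origin, which the labels do not give. With this block 1518 genes were called at 1 h (1533 without it) and 3677 at 24 h (3746). The most similar genes depend on the measure: with Spearman's correlation at most 1 of the 3 stayed among the first 3 for any of the 7. The lowest counts in any library were 18 for Sema7a, 20 for Gpr35 and 36 for Tmem26.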
